A study of Mus musculus with 18 samples.

Results

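The fibroblast growth factor (FGF) genes and their receptors were followed through ATAC-seq peak lists of whole mouse retina. The 10 members were the ligand genes Fgf1, Fgf2 and Fgf9, the intracellular factor genes Fgf12, Fgf13 and Fgf14, and the receptor genes Fgfr1, Fgfr2, Fgfr3 and Fgfr4. They are 10 of the 21911 protein-coding genes of GENCODE M21. A peak was assigned to a member when it overlapped the gene by at least 1 bp between 10 kb upstream of its annotated start and its end (mm10). By this rule 721 of the 911837 peaks in the 18 lists belonged to the family, between 27 and 67 in a library. Overlapping peaks were joined across the lists, and of the 73567 joined regions found in 2 or more lists, 57 lay in the 10 windows.

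The 18 libraries were 6 groups of 3 wild-type retinas (C57BL/6 mice by the study's text), and no group carried a transgene or an added allele. Retinas came from mice 3 months old (3mo) or 18 months old (18mo). At each age there were retinas of eyes raised to an intraocular pressure of 30 mmHg for 1 h (IOP), retinas of the unpressurized fellow eye (contralateral) and retinas of mice given no treatment (untreated), the first pair of groups being collected on day 2 by the sample labels. The study's text gives another interval, and the labels also describe an injected senolytic drug without assigning it to any library, so that its presence in these retinas cannot be settled here. The contralateral eye belongs to an animal whose other eye was pressurized, which limits it as an untouched control. The labels name no animals, so p-values measure the spread between these libraries, which may be partly technical.

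FGF ligands are secreted proteins that bind receptor tyrosine kinases together with heparan sulfate and signal through the Ras and MAP kinase pathway. In the retina they are known as survival factors for photoreceptors and ganglion cells, and Fgf2 is a well-known injury-responsive factor of photoreceptors and Müller glia. Fgf12, Fgf13 and Fgf14 belong to the FGF homologous factors, which are not secreted, do not act as classical receptor ligands and bind the cytoplasmic tail of voltage-gated sodium channels. ATAC-seq reads where a transposase can enter chromatin, so a called peak marks an accessible stretch such as a promoter or an enhancer, not the expression of the gene. In a whole retina, a change in the share of a cell type cannot be told apart from a change in accessibility within its cells.

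Sequences are shown for the accessible elements on which the comparisons below turn. Each line gives 201 bases around the summit of a region in the GRCm38 assembly (mm10), 5′ to 3′, on the strand of the gene. Capitals mark matches, on either strand, to TTCNNNGAA (the STAT motif), TGANTCA (AP-1), TAATCC (Crx and Otx2, photoreceptor homeodomain factors) or GGGCGG (Sp and Klf factors).
Fgf2 intron 1, +3.95 kb, chr3:37352198-37352398, plus strand: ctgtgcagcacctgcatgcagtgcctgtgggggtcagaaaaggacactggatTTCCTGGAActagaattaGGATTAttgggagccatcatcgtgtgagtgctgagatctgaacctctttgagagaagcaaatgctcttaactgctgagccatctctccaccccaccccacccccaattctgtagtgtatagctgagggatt
Fgf2 intron 1, +6.52 kb, chr3:37354765-37354965, plus strand: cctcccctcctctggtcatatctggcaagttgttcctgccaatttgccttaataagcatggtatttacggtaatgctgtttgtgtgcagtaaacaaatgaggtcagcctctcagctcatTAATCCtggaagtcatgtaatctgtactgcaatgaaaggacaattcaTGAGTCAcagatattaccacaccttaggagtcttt
Fgf2 intron 1, +16.9 kb, chr3:37365104-37365304, plus strand: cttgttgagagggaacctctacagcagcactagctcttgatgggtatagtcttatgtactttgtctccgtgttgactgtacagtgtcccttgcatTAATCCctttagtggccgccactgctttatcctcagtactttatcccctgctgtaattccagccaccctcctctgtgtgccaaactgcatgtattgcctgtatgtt
Fgf9 intron 1, +11.6 kb, chr14:58082009-58082209, plus strand: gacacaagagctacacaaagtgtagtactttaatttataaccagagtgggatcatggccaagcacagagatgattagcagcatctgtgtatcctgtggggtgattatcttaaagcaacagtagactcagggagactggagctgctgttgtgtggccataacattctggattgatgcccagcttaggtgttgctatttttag
Fgf12 long-isoform promoter, -0.204 kb, chr16:28753172-28753372, minus strand: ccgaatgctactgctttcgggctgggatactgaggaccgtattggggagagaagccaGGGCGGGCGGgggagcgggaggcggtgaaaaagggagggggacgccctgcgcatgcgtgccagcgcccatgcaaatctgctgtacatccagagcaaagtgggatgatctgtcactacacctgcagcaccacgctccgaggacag
Fgf12 short-isoform promoter, +306 kb, chr16:28446506-28446706, minus strand: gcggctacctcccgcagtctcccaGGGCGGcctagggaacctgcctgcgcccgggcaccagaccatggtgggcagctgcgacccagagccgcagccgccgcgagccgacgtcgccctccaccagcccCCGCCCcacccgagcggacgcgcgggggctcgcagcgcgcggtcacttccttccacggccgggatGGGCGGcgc
Fgfr2 intron, +29.1 kb, chr7:130237046-130237246, minus strand: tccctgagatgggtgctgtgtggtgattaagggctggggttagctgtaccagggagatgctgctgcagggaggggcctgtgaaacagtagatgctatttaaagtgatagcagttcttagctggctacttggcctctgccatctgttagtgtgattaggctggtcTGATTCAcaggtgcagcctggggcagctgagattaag

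The Fgf2 element at +3.95 kb held a STAT match with a Crx and Otx2 match beside it, and the Fgf2 element at +6.52 kb held an AP-1 match and a Crx and Otx2 match. The Fgf9 intron element held none of the motifs searched. Over the 57 family regions, STAT matches were present in 3.51%, AP-1 matches in 5.26%, Crx and Otx2 matches in 15.8%, TEAD matches (CATTCC) in 8.77% and matches to the CTCF motif in 3.51%. The same 201-base windows of all 73445 regions searched held them in 4.43%, 6.62%, 15.4%, 9.49% and 6.31%. GGGCGG was present in 28.1% of the family regions and 18.8% of all regions, and another homeodomain motif, TAATTA, in 0% and 4.16%. Such matches describe the letters and do not show that a factor was bound.

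The libraries differed in their peak lists before any gene was considered. They held 36011 to 66160 peaks, and read depth is unknown because the lists carry no counts. Untreated libraries had short peaks (median width 161 to 192 bp) and contralateral and IOP libraries wide ones (264 to 395 bp), so the kind of control and the peak width cannot be told apart. The 3mo contralateral replicate 2 had 66160 peaks against 39202 and 41499 in the other 3mo contralateral libraries. Promoters of the 7 rod markers, among them Nrl, were called in all 18 libraries, whereas those of 2 of 3 astrocyte markers, 5 of 6 microglial, 5 of 6 endothelial and pericyte and 5 of 6 pigment epithelium markers were called in none. The exceptions were Pax2 (1 library), Tmem119 (2), Pdgfrb (9) and Rgr (18). Promoters called in all 18 libraries were 1 of 5 for cone, 2 of 6 for bipolar and 3 of 7 for amacrine and horizontal markers. They were 1 of 7 for ganglion cell and 2 of 6 for Müller glia markers. Pcp2 (bipolar), Sncg and Slc17a6 (ganglion cell) and Aqp4 (Müller glia) were called in none.

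Of the 57 family regions 14 (24.6%) were called in all 18 libraries, and of all 73567 regions 33.6%, a difference that was not tested. There were 13 promoter regions (5 called in all 18 libraries), 35 intron regions (8), 6 exon regions (0) and 3 upstream regions (1). Fgf9 was the most densely covered member with 17.2 regions per 100 kb of window, followed by Fgf2 (12.5), Fgfr3 (11.8), Fgf1 (8.93), Fgfr4 (7.66), Fgfr1 (5.55), Fgfr2 (2.64), Fgf13 (1.36), Fgf12 (1.16) and Fgf14 (0.564). The median over all coding genes was 5.19, so the intracellular factor genes, whose windows span 516 to 709 kb, lay well under it and the ligand genes above it.

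**Figure D1:**
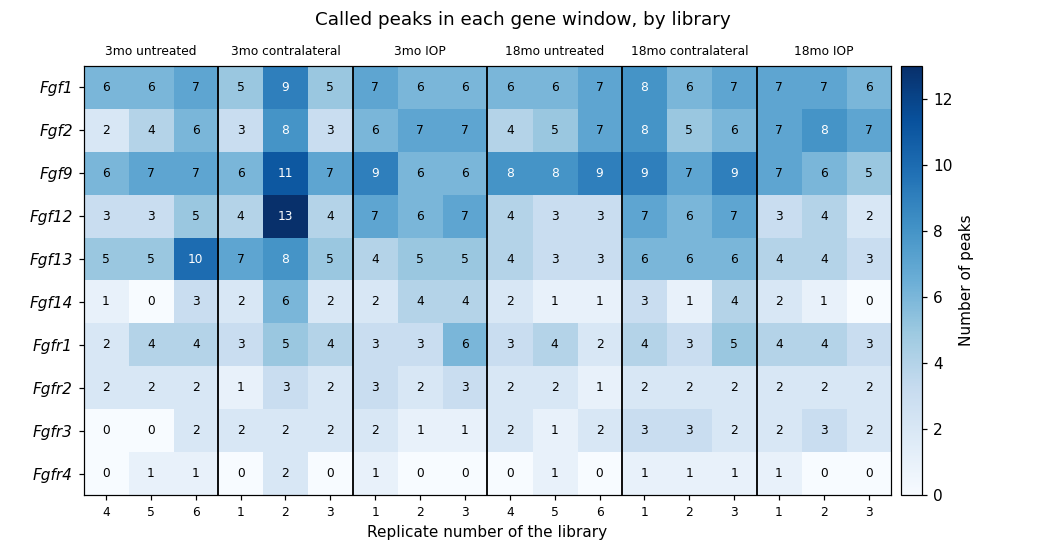
Number of called peaks in each gene window (rows, the 10 members) in each of the 18 libraries (columns, by group and replicate number), shaded by that number. Fgf1, Fgf2 and Fgf9 had at least 2 peaks in every library, whereas Fgf14, Fgfr3 and Fgfr4 were at 0 in some.

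Fgf1 (acidic FGF, chr18:38838673-38929472, minus strand) had 5 to 9 peaks in a library (median 6) in 9 regions, of which 4 were called in all 18. These lay -1.14 kb, +23.0 kb, +39.1 kb and +73.7 kb from the start, and the furthest of them is in intron 2. The promoter of a further Fgf1 transcript at +10.7 kb was called in 16 libraries, and the stretch at -0.130 kb in 2. Part of the Fgf1 window is shared with Arhgap26, and peaks there cannot be assigned to either gene.

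Fgf2 (basic FGF, chr3:37348346-37410108, plus strand) had 2 to 8 peaks (median 6). The 3mo untreated libraries had 2, 4 and 6 peaks, the 3mo contralateral libraries 3, 8 and 3, and the 3mo IOP libraries 6, 7 and 7. The 18mo untreated libraries had 4, 5 and 7, the 18mo contralateral libraries 8, 5 and 6, and the 18mo IOP libraries 7, 8 and 7. All 6 IOP libraries were thus at 6 peaks or more, and the controls ranged from 2 to 8 and overlapped them. The window also holds the 3′ part of the antisense gene Nudt6, so that distal Fgf2 peaks may belong to either gene.

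The Fgf2 peaks fell in 9 regions. The promoter region (chr3:37348272-37349586, 79.6% GC) was called in 17 libraries, missing only in 3mo untreated replicate 4. In intron 1, the region at +3.95 kb (chr3:37352125-37352514) and the region at +16.9 kb (chr3:37364757-37365627) were called in all 18. The region between them, at +6.52 kb (chr3:37354590-37355094), was found in every IOP library at both ages. Among controls it was found at 3mo in 1 contralateral and 1 untreated retina, and at 18mo in 3 contralateral and 2 untreated retinas. The exon region at +32.6 kb, which covers the start of a shorter transcript, was called in 5 of 6 IOP, 2 of 6 contralateral and 2 of 6 untreated libraries. The region at +35.4 kb was called in 3 of 3 IOP libraries at 3mo and in 1 of 3 libraries of every other group. The regions at +41.1 kb and +50.9 kb were rare (2 and 3 libraries), and the upstream region at -7.01 kb, which matched the CTCF motif, was called in 7 libraries, 4 of them untreated.

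**Figure D2:**
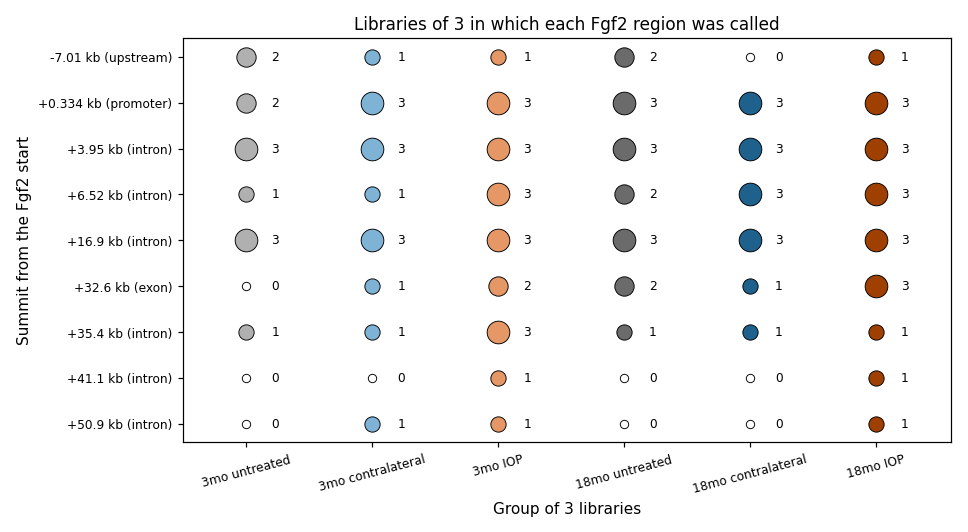
Number of libraries out of 3 (printed, with larger circles for more libraries) in which each of the 9 Fgf2 regions was called, by group. Rows give the distance of the summit from the Fgf2 start. The +6.52 kb region reached 3 of 3 in both IOP groups and in 18mo contralateral retinas.

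Fgf9 (chr14:58070547-58112720, plus strand), a ligand known to be made by retinal neurons, had 5 to 11 peaks (median 7), again in 9 regions. Its promoter regions at +1.64 kb and +4.48 kb and the intron region at +5.90 kb were called in all 18 libraries. By -log10 q, the region at +1.64 kb was among the strongest of the family, at the 72.4th to 88.2nd percentile of each library's peaks. By fold enrichment it lay lower, at the 33.7th to 63.5th percentile.

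Among the intracellular factors, Fgf12 (chr16:28160098-28753068, minus strand) had 2 to 13 peaks (median 4). The promoter of its longest transcript (long-isoform promoter) was called in all 18 libraries and that of shorter transcripts starting +306 kb into the gene (short-isoform promoter) in 11. Fgf13 (chrX:59062145-59568071, minus strand) had 3 to 10 peaks (median 5). Its furthest promoter region, at +433 kb, was called in all 18 libraries, that at its annotated start in 2, and the CpG-rich region just behind it, at +0.651 kb, in 12. Fgf14 (chr14:123977907-124677127, minus strand) had 0 to 6 peaks (median 2) in 4 regions, none in all 18, and the exon region over a later start at +485 kb was called in 16.

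Among the receptors, Fgfr1 (chr8:25513654-25575718, plus strand) had 2 to 6 peaks and its main promoter region at +5.14 kb was called in all 18 libraries. Fgfr2 (chr7, minus strand) had 1 to 3 peaks. Its annotated extent of 2961 kb includes a read-through transcript over 30 other coding genes, so the window used ended at the other Fgfr2 transcripts (chr7:130162451-130276263) and held 3 regions in place of 161. The Fgfr2 intron region at +29.1 kb, on the sequence with the AP-1 match above, had the highest median percentile of the family by -log10 q (86.7, range 72.6 to 93.5). The Fgf2 region at +16.9 kb followed (82, range 66.3 to 87.3). It ranked above the Fgfr2 region in some libraries, such as 18mo untreated replicate 6 (85.7 against 76.9). Fgfr2 was otherwise called at -7.11 kb in 16 libraries and at its own start in 2. Fgfr3 (chr5:33721674-33737068, plus strand) had 0 to 3 peaks, with its promoter called in 13 libraries. Fgfr4 (chr13:55152640-55168759, plus strand) had 0 to 2 peaks, with 5 libraries called near its start.

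IOP elevation was compared with the contralateral retina at each age, the question being which elements open or close after the pressure insult. Summed over the 10 loci, the 3mo IOP libraries had 43.0 ± 2.65 peaks (SD, n = 3) and the 3mo contralateral libraries 44.7 ± 19.3, whereas the 18mo IOP libraries had 36 ± 5.2 and the 18mo contralateral libraries 46.7 ± 5.86. Without 3mo contralateral replicate 2 the summed difference at 3mo went from -1.67 to 9.5, that over both ages from -6.17 to -0.583, and that of the 18mo from the 3mo controls from 0.667 to 6.07. With 3 libraries on each side an exact permutation test cannot go below p = 0.1. At 18mo, 8 of the 10 genes had fewer peaks after IOP, 1 had more and 1 was equal, beside lists that held 36011 to 48723 peaks against 51166 to 60755. When every list was limited to its 36011 strongest peaks by -log10 q, the summed difference at 18mo went from -10.7 to 1.67 peaks. The members' median difference at 18mo was -0.5 peaks and that of all genes 0. Of the 21911 genes in that median only 12212 varied in this comparison, and the median window held 2 regions. The 0 is therefore no benchmark for the family.

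At 18mo, Fgf12 had 3, 4 and 2 peaks after IOP and 7, 6 and 7 in contralateral retinas. Fgf13 had 4, 4 and 3 against 6, 6 and 6. These groups did not overlap. Groups were apart downward for 7.42% and upward for 0.295% of 12212 genes. The exact permutation p was 0.1 for each of these factors, the smallest possible. The Fgf12 difference was -3.67 peaks and that of Fgf13 -2.33, and with lists of equal length they were -1.67 (exact permutation p = 0.2) and 0.667. Fgf12 then had 3, 1 and 2 peaks after IOP against 3, 4 and 4, so that the groups overlapped. Fgf9 had 7, 6 and 5 peaks after IOP against 9, 7 and 9 (difference -2.33, exact permutation p = 0.2), and Fgf2 had 1.00 peak more (exact permutation p = 0.5). At 3mo the differences were 2 for Fgf2 (exact permutation p = 0.4), -2 for Fgf13 (p = 0.3) and -0.667 for Fgfr3 (p = 0.4), with 0.448% and 0.439% of all genes not overlapping upward and downward.

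Taking both ages together, with labels permuted within age, Fgf13 had 4.17 ± 0.753 peaks in 6 IOP libraries and 6.33 ± 1.03 in 6 contralateral libraries, a difference of -2.17 (exact permutation p = 0.015, adjusted p = 1 over 13514 genes). Fewer peaks after IOP at an unadjusted p under 0.05 were found for 1.3% of genes and more for 0.155%, and 0% passed after adjustment. With lists of equal length the Fgf13 means were 3.33 in both groups. Fgf9 had 6.50 ± 1.38 against 8.17 ± 1.84 peaks (difference -1.67, exact permutation p = 0.17). Fgf2 had 7.0 ± 0.632 peaks after IOP against 5.50 ± 2.26 (difference 1.5, exact permutation p = 0.2). Without 3mo contralateral replicate 2, the library with the longest list, that difference was 2.33 (exact permutation p = 0.035, adjusted p = 1). This was the largest value when each of the 12 libraries was left out in turn. The lowest was 1.08, and the exact permutation p ranged from 0.035 to 0.37.

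With lists of equal length the Fgf2 groups separated within each age. These lists were cut by -log10 q, so this count is not independent of the -log10 q ranks below, and a cut by fold enrichment was not tested. The 3mo IOP libraries then had 4, 4 and 5 Fgf2 peaks against 3, 2 and 3 in the contralateral libraries, and the 18mo IOP libraries 5, 5 and 7 against 4, 3 and 3. The difference was 2.00 peaks (5.00 ± 1.10 against 3.00 ± 0.632, n = 6), with an exact permutation p of 0.005, the smallest these labels allow, and an adjusted p of 1. Of 11009 genes tested that way, 1.26% had more and 0.427% fewer peaks after IOP at an unadjusted p under 0.05. Among the strongest 36011 peaks, the +6.52 kb element was present in every IOP library of both ages, whereas 0 of the 3mo and 2 of the 18mo contralateral lists held it. The promoter region was present in 3 of 3 IOP libraries at both ages and in 2 and 1 contralateral libraries. By fold enrichment among all peaks, its percentile was 39.8, 24.6 and 19.6 in 3mo IOP and 20.8, 29.6 and 13.6 in 3mo contralateral libraries. At 18mo it was lower after IOP, at 20.6, 19.9 and 12.3 against 26.8, 40.1 and 23.4. Untreated retinas had 2, 4 and 2 Fgf2 peaks at 3mo and 3, 3 and 6 at 18mo by this count.

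No family region was gained or lost in 3 of 3 against 0 of 3 libraries after IOP at 3mo, where 0.217% and 0.241% of all regions were. At 18mo none was gained (0.239% of all regions) and 1 of 57 was lost (1.75%, beside 2.23% of all regions). The lost region was the Fgf9 intron element at +11.6 kb (chr14:58082009-58082242), called in 3 of 3 contralateral, 3 of 3 untreated and 0 of 3 IOP libraries at 18mo, and in 2, 3 and 1 of 3 at 3mo. Across ages 6 family regions could be tested by an exact conditional test and none reached an unadjusted p of 0.05 in either direction, against 1.62% (more often) and 3.43% (less often) of 5572 regions. The Fgf9 element, present in 1 of 6 lists after IOP and in 5 of 6 contralateral lists, had an exact p of 0.095 (adjusted p = 0.785). The Fgf2 exon region at +32.6 kb had an exact p of 0.26. The +6.52 kb region, called in all 18mo libraries of both groups, could not reach the threshold and is not among the 6.

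Peak heights were compared as ranks. For the 24751 regions called in all 18 libraries, 14 of them in the family, the -log10 q of each region was turned into its percentile within each library. The Fgf2 intron element at +3.95 kb, with the STAT match, stood apart after IOP. Its percentile was 46.2, 49.6 and 49.7 in the 3mo IOP libraries against 18.9, 31.2 and 7.42 in the 3mo contralateral libraries. It was 57.3, 54.2 and 58.1 in the 18mo IOP libraries against 15.5, 29.8 and 28.3 in the 18mo contralateral libraries. The groups did not overlap at either age.

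Over both ages the element lay at 52.5 ± 4.75 after IOP and at 21.9 ± 9.48 in contralateral retinas (SD, n = 6 each). The difference of 30.7 percentile points had an exact permutation p of 0.005, the smallest possible, and an adjusted p of 0.332. Of the 14 family regions 1, this element, had an unadjusted p under 0.05, beside 4.36% of all 24751 regions upward and 3.78% downward, with 0% after adjustment. The difference was 29.3 points at 3mo and 32.0 at 18mo, and the test of the difference between the ages gave an exact permutation p of 0.93. The labels were also permuted within age and within peak-length class, chosen after seeing the data, and gave an exact p of 0.00926.

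By this -log10 q rank, the untreated retinas stood nearer to IOP than to contralateral retinas at this element. They lay at 43.5, 47.1 and 47.3 at 3mo and at 32.4, 41.9 and 44.6 at 18mo (42.8 ± 5.50, n = 6). With untreated retinas in place of contralateral ones as the control, again chosen after seeing the data, the IOP difference was 9.72 percentile points (exact permutation p = 0.015, adjusted p = 0.0485). In that comparison 16.4% of all regions were higher and 14.5% lower after IOP at an adjusted p under 0.05, and the lists differ in peak width as described above.

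The rank depended on which property of the peak was used. By fold enrichment over local background the difference of IOP from contralateral libraries was -1.34 points (exact permutation p = 0.7). The fold enrichment itself was 4.97 ± 0.591 in 3mo IOP, 5.53 ± 1.64 in 3mo contralateral, 5.50 ± 0.968 in 18mo IOP and 6.51 ± 0.778 in 18mo contralateral libraries (n = 3 each), with overlap at both ages. The called peak was wider after IOP, at 279 to 374 bp against 193 to 247 bp at 3mo and 244 to 352 bp against 177 to 218 bp at 18mo. In untreated libraries the fold was 9.49 to 13.0 and the width 184 to 228 bp. The part of peak width in the -log10 q result was not tested.

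**Figure D3:**
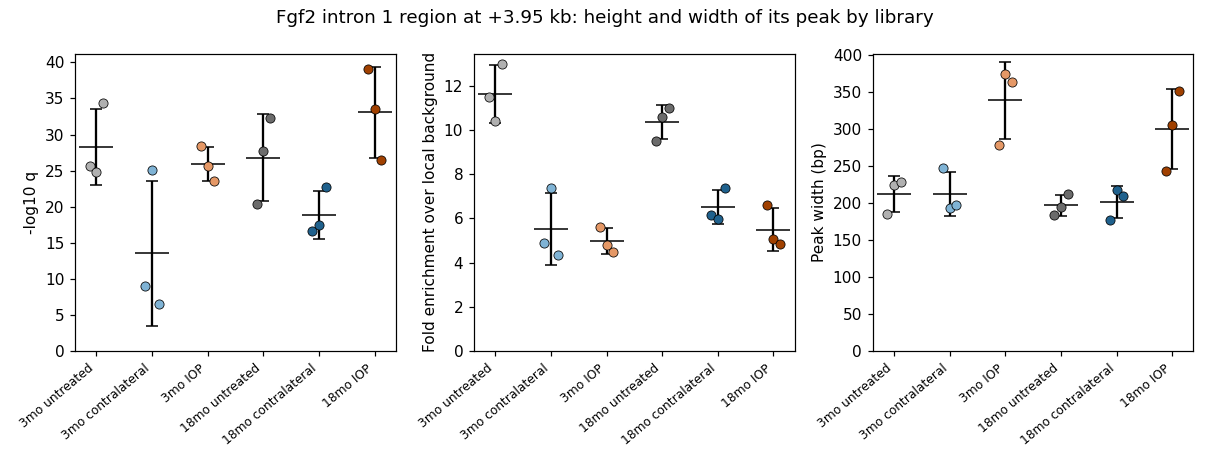
The peak over the Fgf2 intron 1 region at +3.95 kb in each library (points), with the mean and SD of each group of 3: -log10 q (left), fold enrichment over local background (middle) and peak width in bp (right). IOP libraries had wider peaks than contralateral ones at each age, higher -log10 q at 18mo (at 3mo the lowest IOP value, 23.6, lay under 25.1 in contralateral replicate 2) and overlapping fold enrichment.

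The neighbouring Fgf2 elements gave smaller values. The +16.9 kb element lay at 65.3 ± 6.50 after IOP and 58.5 ± 8.58 in contralateral retinas (difference 6.80, exact permutation p = 0.06, adjusted p = 0.585). The +6.52 kb element was not called in all libraries, so its height was not tested. Among all peaks of each library that called it, its percentile was 57.7, 71.4 and 78.4 in 3mo IOP and 71.2, 78.0 and 67.9 in 18mo IOP libraries. It was 40.4 in the only 3mo contralateral library that called it, and 49.4, 29.2 and 40.2 in the 18mo contralateral libraries. It was 16.9 to 37.4 in the 3 untreated libraries that called it. The 6 IOP values thus lay above every control value among libraries with a peak, in lists of different lengths and with no test. By fold enrichment the percentiles were 38, 49.5 and 62.6 in 3mo IOP, 35.5 in that 3mo contralateral library, 54.7, 57.4 and 45.7 in 18mo IOP and 48.1, 25.7 and 35.7 in 18mo contralateral libraries. By that measure IOP and contralateral libraries overlapped at 18mo.

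**Figure D4:**
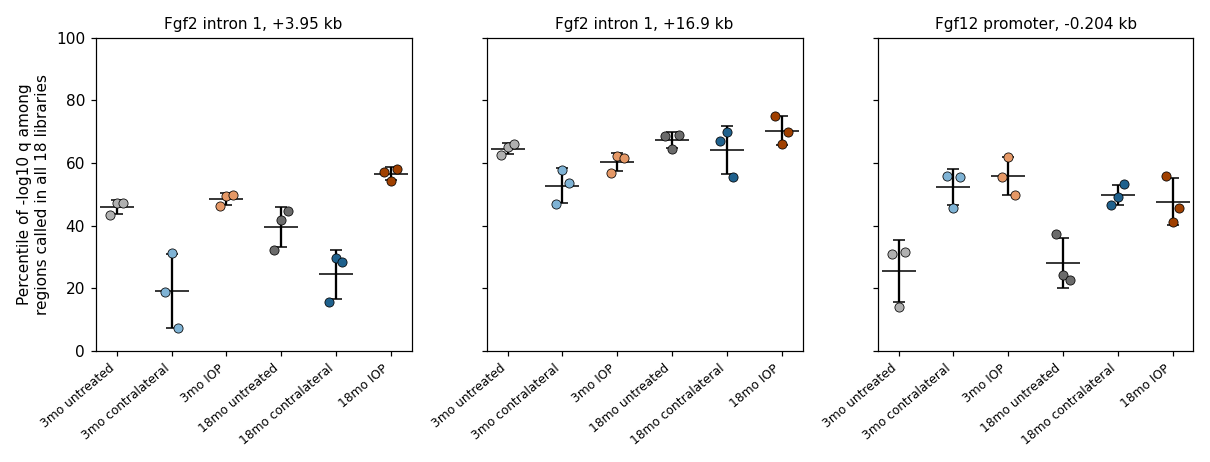
Percentile of -log10 q, among the regions called in all 18 libraries, of the Fgf2 intron 1 regions at +3.95 kb and +16.9 kb and of the Fgf12 long-isoform promoter, by group. Points are libraries, and bars are the mean and SD of 3. The +3.95 kb region was lowest in contralateral and the Fgf12 promoter lowest in untreated retinas.

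Of the other family regions called throughout, 2 of Fgf1 did not overlap between IOP and contralateral libraries at 18mo. The +23.0 kb region was at 18.7 to 20 after IOP and 1.43 to 7.08 in contralateral retinas, and the +73.7 kb region was at 21.3 to 28.4 against 36.2 to 54.5. At 3mo the Fgf1 region at +39.1 kb was at 7.86 to 15 against 22.5 to 27.4. Such separation was seen in 8.42% of regions upward and 7.70% downward at 18mo, and in 4.17% and 3.87% at 3mo.

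Aging was addressed with 6 control retinas at 18mo against 6 at 3mo, contralateral and untreated retinas together. The summed number of family peaks was 40.7 ± 7.55 at 18mo and 40 ± 14.8 at 3mo. No member differed with an unadjusted p under 0.05, where 1.72% of 15306 genes had more and 0.203% fewer peaks at 18mo and 0% passed after adjustment. Fgf13 had 4.67 ± 1.51 peaks at 18mo and 6.67 ± 2.07 at 3mo (difference -2, exact permutation p = 0.117). Fgf2 had 5.83 ± 1.47 and 4.33 ± 2.25 (difference 1.5, exact permutation p = 0.251), and without 3mo contralateral replicate 2 the difference was 2.23 (exact permutation p = 0.0433, adjusted p = 0.975). Leaving out each library in turn gave Fgf2 differences of 1.03 to 2.23 (exact permutation p from 0.0433 to 0.426). Fgfr3 had 2.17 ± 0.753 and 1.33 ± 1.03 (difference 0.833, exact permutation p = 0.242).

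The Fgf2 element at +6.52 kb was called in 5 of 6 control retinas at 18mo and 2 of 6 at 3mo (Fisher's exact p = 0.242, adjusted p = 1). None of the 8 family regions that could be tested for age differed at an unadjusted p under 0.05, against 3.19% of regions called more often and 0.385% less often at 18mo. None was called in 3 of 3 libraries at an age and 0 of 3 at the other within contralateral retinas (1.14% of all regions at 18mo and 0.122% at 3mo) or within untreated retinas (0.892% and 0.776%). In rank, the Fgf1 intron region at +39.1 kb was lower at 18mo (11.8 ± 8.09) than at 3mo (25.0 ± 4.72), a difference of -13.2 with an exact permutation p of 0.013 and an adjusted p of 0.436. Of the 14 regions 1 was thus under 0.05, beside 3.76% of all regions lower and 4.37% higher. The Fgf2 element at +3.95 kb showed a difference of -0.502 with age (exact permutation p = 0.961).

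The untreated and contralateral retinas were compared as kinds of control, 6 against 6. The family had 35.0 ± 6.60 peaks in untreated and 45.7 ± 12.8 in contralateral retinas, and all 10 genes had the lower mean in untreated ones. The members' median difference between the kinds of control was -0.833 peaks and that of all genes 0. Of the 21911 genes in that median only 15306 varied here, so the 0 is again no benchmark for the family. Without 3mo contralateral replicate 2 the summed difference went from -10.7 to -6.40. Fgf12 had 3 to 5 peaks in untreated and 4 to 13 in contralateral libraries (3.50 ± 0.837 against 6.83 ± 3.31, exact permutation p = 0.0216, adjusted p = 0.302). No other member had an unadjusted p under 0.05, beside 8.42% of genes higher and 1.67% lower in untreated retinas, with 0% after adjustment. Fgfr3 followed (1.17 ± 0.983 against 2.33 ± 0.516, exact permutation p = 0.0758), then Fgf14 (1.33 ± 1.03 against 3.00 ± 1.79, exact permutation p = 0.11), while Fgf2 differed by -0.833 (exact permutation p = 0.574).

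Of the single regions that could be tested, the Fgf12 short-isoform promoter had the smallest p. The Fgf12 short-isoform promoter (chr16:28446129-28447001, 77.6% GC) was called in 1 of 6 untreated, 6 of 6 contralateral and 4 of 6 IOP libraries. Its Fisher's exact p was 0.0152 and its adjusted p 0.132, and with lists of equal length, where 3 of 18 held it, its Fisher's exact p was 0.455. It was 1 of 8 testable family regions with an unadjusted p under 0.05, beside 5.89% of regions called more often and 5.55% less often in untreated retinas. At 18mo 5 of 57 family regions (8.77%, beside 3.11% of all regions) were called in 3 of 3 contralateral and 0 of 3 untreated libraries, and 0 the other way round (1.24% of all regions). They were the Fgf12 short-isoform promoter, the Fgf12 intron region at +261 kb, the Fgf1 intron region at +47.2 kb, the Fgf13 region at +0.651 kb and the Fgfr3 intron region at +1.51 kb. With lists of equal length none of the 5 was called in 3 of 3 contralateral libraries at 18mo (0 to 2 of 3). At 3mo the Fgfr3 promoter (chr5:33721610-33722487) was called in 3 of 3 contralateral and 0 of 3 untreated libraries (1.75%, beside 0.489% of all regions), and 0 regions the other way round (1.25%). With lists of equal length it was called in 2 of 3 and 0 of 3. At 18mo that promoter was called in 2 of 3 untreated libraries.

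**Figure D5:**
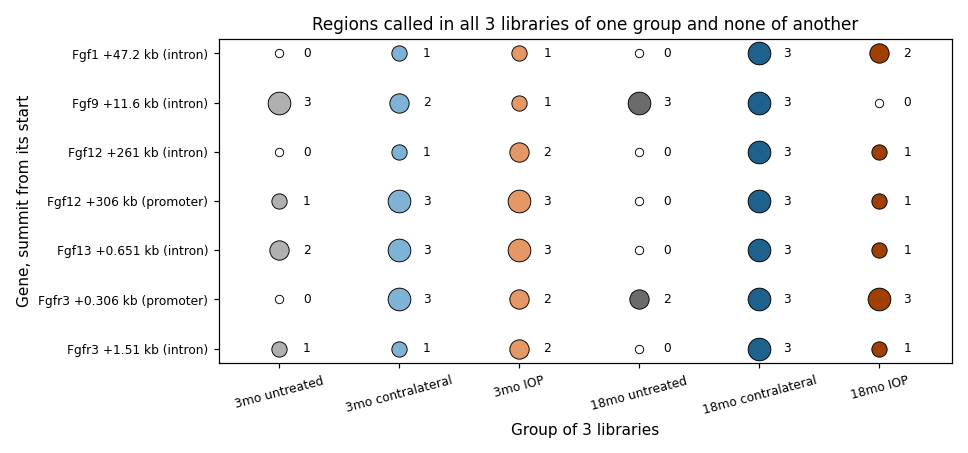
Number of libraries out of 3 (printed, with larger circles for more libraries) in which each of 7 regions was called, by group. The regions are those called in 3 of 3 libraries of a group and 0 of 3 of another in the untreated or IOP comparison with contralateral retinas. Of the 7, 6 were absent from an untreated group and the Fgf9 region from 18mo IOP.

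Peak ranks separated the kinds of control more widely than they separated age or IOP. Over all 24751 regions, 22.9% differed at an adjusted p under 0.05, and 2 of the 14 family regions did. The Fgf12 long-isoform promoter lay at 31.0, 14.1, 31.5, 37.4, 24.2 and 22.8 in the untreated libraries and at 45.6 to 55.9 in the contralateral ones (26.8 ± 8.20 against 51.0 ± 4.48, difference -24.2, exact permutation p = 0.00216, adjusted p = 0.0186). IOP libraries were at 41.2 to 62.0, with the contralateral ones. The Fgf2 element at +3.95 kb moved the other way, by 20.9 (exact permutation p = 0.00216, adjusted p = 0.0186), and both kept these directions by fold enrichment (-33.0 and 31.4). At an unadjusted p under 0.05, the Fgf9 promoter region at +1.64 kb (difference -7.33, exact permutation p = 0.0325) and the Fgfr1 promoter region (difference -12.4, exact permutation p = 0.0476) were also lower in untreated retinas, beside 20.1% of all regions lower and 18.3% higher.

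Base composition moved with this comparison across all regions. The median rank difference of untreated from contralateral retinas was 6.22 points for regions under 45% GC and -3.17 points for regions of 65% GC or more. The Fgf12 long-isoform promoter has 62.2% GC, the Fgfr1 promoter 71.6%, the Fgf9 promoter region 80.6% and the Fgf2 element at +3.95 kb 50.2%. The part of base composition in the differences of single regions was not tested. Across the same bins the median difference was between -1.17 and 0.520 for IOP and between -0.394 and 0.459 for age.

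The wider pathway was read by the same count of peaks per gene, from lists chosen with earlier results of these data known. Promoters of 18 of 18 signal transducers, among them Frs2 and Grb2, were called in all 18 libraries, as were those of 8 of 9 feedback inhibitors (Spry3 was not matched) and 5 of 6 target transcription factors. In contrast, 8 of the 16 other FGF ligand genes, such as Fgf3, Fgf10 and Fgf21, had no promoter call in any library, and Fgf15, Fgf20 and Fgf22 had one in all. Of 15 co-receptors and binding proteins 9 were called in all 18 libraries and Klb and Fgfbp1 in none, and of 9 heparan sulfate enzymes 6 were called in all. Of 6 voltage-gated sodium channel genes, the partners of the intracellular factors, Scn2a and Scn8a were called throughout and Scn3a in 3 libraries. The share of all coding genes with such promoter calls is not given beside these counts, so they are no result about the pathway. Among the members, promoters were called in all 18 libraries for Fgf1, Fgf9, Fgf12, Fgf13 and Fgfr1. The Fgf1 regions classed above as promoters were called in 16 and 2 libraries. The Fgf1 region at -1.14 kb, classed above as upstream by its summit, reaches into the promoter stretch and was called in 18. Member promoters were called in 17 libraries for Fgf2, in 13 for Fgfr3, in 9 for Fgf14 and in 3 for Fgfr4. In the Fgfr2 window used, the promoter region at the Fgfr2 start was called in 2.

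No pathway gene passed the adjusted threshold in any comparison. For IOP across ages, 0 genes of these 7 lists had an unadjusted p under 0.05, beside 0.155% of all genes with more and 1.3% with fewer peaks. For age, 2 of 18 signal transducers did, Sos2 (4.50 ± 0.548 peaks at 18mo against 2.83 ± 1.17, exact permutation p = 0.0281) and Map2k1 (3.50 ± 0.837 against 2.33 ± 0.516, exact permutation p = 0.0476), both with an adjusted p of 1. Over all genes, 1.72% had more and 0.203% fewer peaks at 18mo at that unadjusted threshold. In untreated against contralateral retinas, Spred1 (4.67 ± 0.516 against 2.50 ± 0.548), an inhibitor of Ras signalling, and Egr1 (5.50 ± 0.837 against 3.33 ± 0.516), an early response factor, had more peaks (exact permutation p = 0.00216 and adjusted p = 0.117 for each). Braf, Frs3, Spry1 and Sdc1 also had more and Dusp6 and Fgf8 fewer at an unadjusted p under 0.05, with adjusted p from 0.236 to 0.454. Over all genes the shares were 8.42% with more and 1.67% with fewer.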

How the data were processed

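Fresh retinas were transposed and sequenced in paired ends (study's methods; the labels' extraction text also describes a ChIP protocol). Reads were aligned to mm10, and the authors called peaks per library with MACS2 at q of 0.05 or less. The submitters' notes name STAR 2.7.8a, MACS2, HOMER, edgeR and bedtools 2.29.2. Read filters and the transposase shift are not given in the sources used here. The deposited lists give each peak's position, a score, a fold enrichment over local background and -log10 p and -log10 q as MACS2 wrote them. They hold no counts, so read depth is unknown and the authors' count model could not be run. No peak lay past the end of a GRCm38 chromosome.

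The members and lists were chosen with earlier results of these data known, and the read-through transcript of Fgfr2 was dropped after seeing the data. Peaks per window were counted for every coding gene and compared by two-sided exact permutation tests (924 arrangements for age and kind of control, 400 within age for IOP and 20 at each age). Calls were compared by Fisher's or an exact conditional test. P-values were adjusted by Benjamini-Hochberg over all genes or regions that could be tested. For each comparison, Fgf2 and the members with the 3 smallest p are given. Regions named are promoters (1 kb upstream to 100 bp downstream of a start), all Fgf2 regions, regions exclusive to a group and regions with p under 0.05; others were named to describe a locus. Python 3.11.15, numpy 2.4.6, scipy 1.17.1 and pysam 0.24.0 were used, and the tests were checked on simulated data. Alternatives were lists of equal length, a stricter q, other windows and overlaps, rank by fold enrichment, other controls, a replicate block and leaving out each library.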

Additional observations from a re-analysis of the deposited data

Results flagged for a closer look

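Of 55 groups of 6 libraries looked at, 7 held a library far from the others in its number of peaks in a window (Dixon's criterion). Its nominal rate of about 1 group in 20 need not hold for small whole counts from groups that share libraries. The 3mo contralateral replicate 2, whose list was the longest, had 11 Fgf9 peaks and 13 Fgf12 peaks, both far above the other 3mo controls, and its 13 Fgf12 peaks were also far from the other contralateral libraries. The 3mo untreated replicate 6, with the longest untreated list, had 10 Fgf13 peaks, far above the other untreated libraries. The 18mo untreated replicate 6 had 1 Fgfr2 peak where the other 18mo controls and the other untreated libraries had 2. The 3mo IOP replicate 3 had 6 Fgfr1 peaks against 3 or 4 in the other IOP libraries.

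The IOP difference in rank of the Fgf1 intron region at +23.0 kb was -1.45 percentile points at 3mo and 15.4 at 18mo. The test of the difference between the ages (16.9) gave an exact permutation p of 0.04 and did not pass adjustment (adjusted p = 1). An unadjusted p under 0.05 was found for 1 of 14 family regions and 2.98% of all regions, and 0% passed after adjustment.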

How the results depend on the processing

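The lists carry no read depth, so its effect on the calls could not be measured. Of 411 alternative values for single genes and regions, 402 kept their direction and their side of the adjusted threshold, 5 turned direction, 2 passed the threshold and 2 were 0 (Fgf13 for IOP across ages with lists of equal length and Fgfr3 for IOP at 3mo with both kinds of control). With every list limited to its 36011 strongest peaks, the difference went to -0.1667 for Fgfr3 with age, 0.6667 for Fgf13 with IOP at 18mo and 0.3333 for Fgf2 in untreated against contralateral retinas, each the opposite direction, and to 1.667 for the sum over the 10 loci with IOP at 18mo. That sum was -32.33 with the Fgfr2 window as annotated and -4.667 with both kinds of control, and the sum for IOP across ages was -18.33 with the annotated window. By fold enrichment the rank difference of the Fgf2 element at +3.95 kb was -1.34 for IOP, and that of the Fgf9 promoter region at +1.64 kb was 4.146 between the kinds of control. The Fgf2 element passed the adjusted threshold against untreated retinas (9.723, adjusted p = 0.0485), and the Fgf9 region without 18mo contralateral replicate 2 (-9.083, adjusted p = 0.0305). The causes were not tested.

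Counts of family regions were small and moved with the settings. The share of all regions under each setting is not given beside them, so they are no result about the family. For IOP at 3mo, 1 region was gained with lists of equal length and 1 at a stricter q, and 1 was lost when peaks had to cover 50% of the region. For IOP at 18mo, 1 was gained with lists of equal length and 1 at 50% cover. Across ages, 1 region was called more often at 50% cover. Between the kinds of control, 2 regions were called less often in untreated retinas with lists of equal length and 6 at 50% cover. The count of regions differing in rank for IOP was 3 with both kinds of control and 6 with untreated retinas. Against untreated retinas, 16.4% of all 24751 regions were higher and 14.5% lower after IOP at an adjusted p under 0.05. Both alternatives were chosen after seeing the data. So were the annotated Fgfr2 window and the rank fits with a block or without a library. Leaving out each library in turn gave 0 to 5 regions gained and 0 to 1 lost for IOP at 3mo (5 without contralateral replicate 2), 0 to 1 gained and 1 to 5 lost at 18mo (5 without IOP replicate 1), 0 to 1 called less often across ages, and 1 to 4 called less often in untreated retinas (4 without 3mo contralateral replicate 3). In rank it gave 1 to 2 regions for age, 1 to 3 for IOP and 2 to 5 between the kinds of control.

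Whether libraries of the same replicate number are paired could not be settled, since the labels name no animals. Correlations of their deviations lay between -0.090 and 0.097, and for 3 of the 6 pairs of contralateral and IOP libraries the correlation was highest with the own number. With the replicate number as a block, the count of regions differing in rank with age was 0, the Fgf2 element kept its IOP difference of 30.67 (exact permutation p = 0.0312, the smallest possible), and Fgf13 had an exact permutation p of 0.0625 for IOP across ages.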
